A study of Mus musculus with 2 samples.

Results

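Expression of 9 regulators of the uterine epithelium was followed through a single-cell RNA sequencing study of the mouse uterus: the transcription factors Foxa2, Sox17, Msx1, Klf5, Elf3, Ehf and Pax8, the transcriptional co-activator Cited1, and the secreted ligand Ihh. The 9 genes were taken by symbol from the 32285 genes counted, by a rule that uses no measured value, though earlier results of these data were known when they were picked. There were 2 libraries, each made from the pooled uteri of 3 C57BL/6J mice aged 6 months. The control-labelled library came from Prickle1 f/f mice, in which the planar cell polarity gene Prickle1 carries a loxP-flanked allele. The cKO-labelled library (cKO commonly means conditional knockout) came from Prickle1 f/f MiC mice. What MiC is and which cells it affects is not given in the sources used here, and the genotype entry of both libraries says wild-type. By these names both libraries share the floxed allele, and they share the strain and the age.

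These genes build and maintain the lining of the uterus. Foxa2 is the defining factor of the uterine glands, and mice that lack it in the uterus form no functional glands. Sox17, Msx1 and Klf5 act in the luminal epithelium, where they are required for normal attachment of the embryo. Ihh is secreted by the epithelium under progesterone, signals to the stroma below through the receptor Ptch1, and is one of the targets linked to Sox17. Elf3 and Ehf are epithelium-specific members of the ETS family, whose proteins bind the core GGAA. Pax8 marks epithelia that come from the Müllerian duct. Cited1 binds CBP and p300 and is known in the uterus as a gene that responds to oestrogen.

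A barcode was kept as a cell from 1000 unique molecular identifiers (UMIs, each standing for 1 captured transcript) and 500 genes upward, if mitochondrial genes held no more than 20% of its UMIs. This left 3490 cells of the control-labelled library and 3586 of the cKO-labelled library, with median depths of 4953 and 4903 UMIs. The libraries shared 6 cell barcodes. Prickle1 was not lower in the cKO-labelled library: it had 96 UMIs, or 2.56 CPM (UMIs as a share of the total of a library or class, in parts per 1e6), over all cells of the control-labelled library and 265 UMIs (9.03 CPM) over those of the cKO-labelled library. Which part is floxed is not given either, so these 3-prime counts do not test the deletion. Groups are therefore named by their labels throughout. With 1 library per group no difference could be tested, and every interval below is a 95% interval for counting error alone, which does not cover the variation between mice or preparations.

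The epithelium differed in size and makeup between the libraries, and this touches every value that follows. Epithelium-like cells, named from keratins and junction genes, were 1312 of 3490 cells (37.6%) in the control-labelled library and 109 of 3586 cells (3.04%) in the cKO-labelled library. All 9 of their defining markers were present in both, but not equally. Krt8 was found in 94.9% and 90.8% of the epithelium-like cells and Cldn7 in 84.9% and 84.4%. Krt19 was found in 86.2% and 73.4%, Cldn4 in 88.1% and 72.5%, and Cldn3 in 73.4% and 44.0%. Of the 4 epithelium-like clusters, the control-labelled library gave cluster 0 772 cells and the cKO-labelled library 31, and cluster 3 had 299 and 77. Clusters 1 and 10 had 25 and 216 cells from the control-labelled library against 1 and 0, so clusters 0, 1 and 10 each drew over 90% of their cells from 1 library. Cluster 0 supplied most epithelium-like cells of the control-labelled library and cluster 3 most of those of the cKO-labelled library. The 5 deepest of the 109 cells held 48.9% of the 1347039 epithelial UMIs of the cKO-labelled library, whereas the 5 deepest of the 1312 held 4.34% of the 18899361 of the control-labelled library. The control-labelled sum was uneven too: 216 deep cells (sub-cluster 4 below) held 10262380 of its UMIs. That group had 1 cell in the cKO-labelled library.

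The upstream sequences of 3 of the genes are shown because the results below turn on the first 2 and because the third, Pax8, had the pattern over cell clusters that was most like that of Elf3 among the 9. RefSeq promoter tables of the GRCm38.p6 build held entries for 6 of the 9 genes. Entries for Sox17, Klf5 and Ehf were not found. From the 250 bases before the start, those outside the annotated gene are printed 5′ to 3′ on the gene's strand, and capitals mark the ETS core GGAA or its complement TTCC. All 3 genes lie on the minus strand. The Cited1 stretch, for the first of its 3 listed starts, is chrX:102252182-102252431, that of Elf3 is chr1:135258569-135258722, and that of Pax8 is chr2:24475600-24475849.
Cited1: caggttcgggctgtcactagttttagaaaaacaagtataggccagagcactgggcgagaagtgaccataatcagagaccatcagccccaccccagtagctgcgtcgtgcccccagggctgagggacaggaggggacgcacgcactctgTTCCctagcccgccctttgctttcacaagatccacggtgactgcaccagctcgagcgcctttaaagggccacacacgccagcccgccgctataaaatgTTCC
Elf3: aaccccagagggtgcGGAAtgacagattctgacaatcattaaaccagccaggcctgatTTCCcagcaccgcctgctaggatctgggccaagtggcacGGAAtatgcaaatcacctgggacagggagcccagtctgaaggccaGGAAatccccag
Pax8: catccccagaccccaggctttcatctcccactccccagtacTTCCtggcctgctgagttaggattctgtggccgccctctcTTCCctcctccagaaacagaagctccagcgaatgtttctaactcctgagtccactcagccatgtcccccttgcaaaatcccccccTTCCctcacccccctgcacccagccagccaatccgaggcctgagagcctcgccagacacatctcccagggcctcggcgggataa
The ETS core matched 2 times in the Cited1 stretch, 4 times in that of Elf3 and 3 times in that of Pax8, on either strand. So short a motif is common: 93.4% of the 32851 promoter windows of 250 bases hold it. The KLF box CCCCACCC matched 1 time before this Cited1 start and is held by 9.05% of promoters, and the same stretch held the GC box CCCGCCC, found in 23.4%. A match is a description of the letters and not a bound site.

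All 9 genes are protein-coding, and their positions were read from the GENCODE annotation of GRCm38. Cited1 lies at chrX:102247381-102252181, Elf3 at chr1:135253575-135258568, Sox17 at chr1:4490931-4497354 and Foxa2 at chr2:148042877-148046969, all on the minus strand. Ihh lies at chr1:74945315-74951672, Ehf at chr2:103263433-103303278, Pax8 at chr2:24420560-24475599 and Msx1 at chr5:37820485-37824583, also on the minus strand, and Klf5 at chr14:99298691-99315036 on the plus strand. Sox17, Elf3 and Pax8 each overlap a non-coding gene on the opposite strand, and those 3 partners had at most 27 UMIs in the epithelium-like cells of either library. Reads of a gene and its partner were not separated further here.

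In the control-labelled library, each of the 9 genes had most of its UMIs in epithelium-like cells. Those cells held 18899361 of the 37537472 UMIs of all its cells, which raises such shares. Of the UMIs that fell in cells, 99.2% of those of Elf3, 99.1% of Pax8, 98.2% of Cited1 and 98.2% of Sox17 lay in epithelium-like cells. The share was 96.8% for Ehf, 95.8% for Klf5 and 89.3% for Msx1. For Foxa2 and Ihh it was 92.6% and 75%, but of only 27 and 4 UMIs in all cells of that library. In the cKO-labelled library the epithelial shares were 95.1% for Elf3, 93.2% for Pax8 and 87.7% for Sox17. They were 52.7% for Klf5, 52.1% for Ehf, 33.3% for Msx1 and 5.21% for Cited1. In T or NK-like cells, which should lack these genes, none of the 9 was found in more than 1.54% of the 195 cells of the control-labelled library (median depth 4083 UMIs), and in the other library Klf5 was found in 2.22% of 450 cells (median 3550.5 UMIs) and the others in at most 0.667%. Shares were larger in macrophage or monocyte-like cells. Elf3 was found in 3.54% and Klf5 and Ehf in 2.57% of the 311 of the control-labelled library. Ehf was found in 4.91% of the 224 of the cKO-labelled library.

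**Figure D1:**
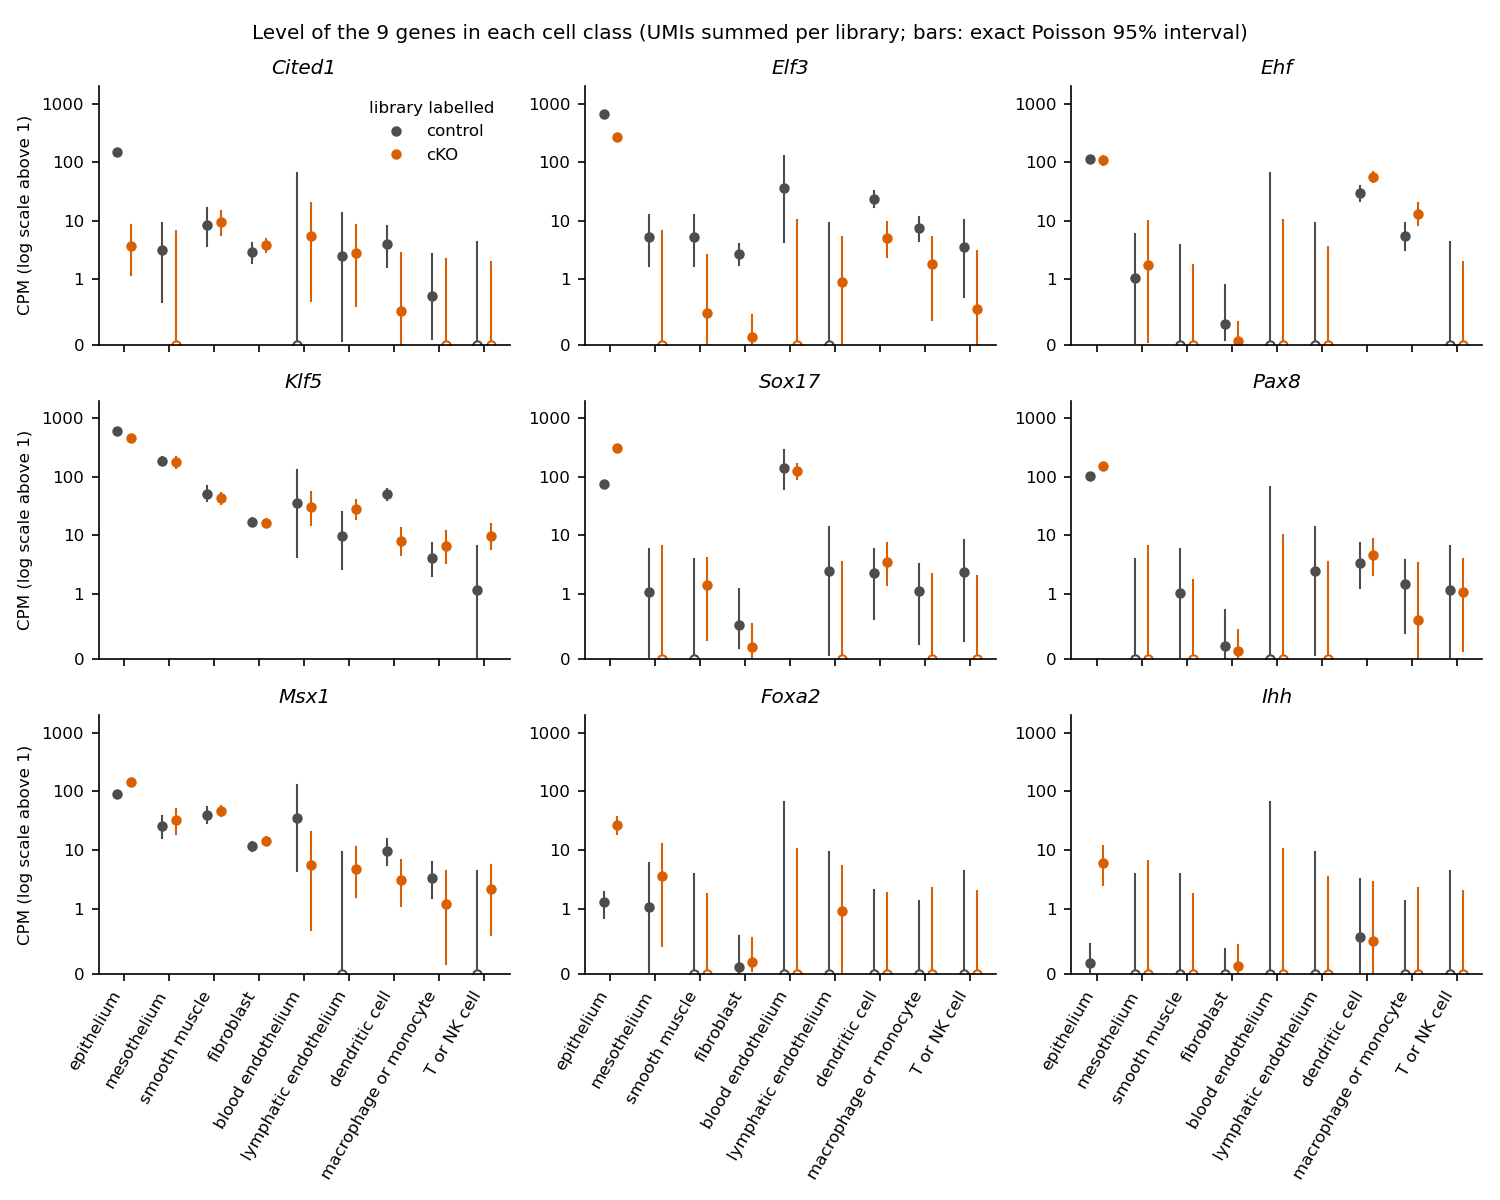
Level of each gene in 9 cell classes, in CPM on an axis that is logarithmic above 1, for the control-labelled library (grey) and the cKO-labelled library (orange). Bars are exact Poisson 95% intervals and open points are 0 UMIs. Cited1 stood at 147 CPM in epithelium-like cells of the control-labelled library and at 3.71 CPM in those of the cKO-labelled library, while in fibroblast-like and smooth muscle-like cells the points of both libraries overlap.

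Over all cells together, 7 of the 9 genes were lower by at least 2-fold in the cKO-labelled library and 0 were higher, against 8.05% and 5.32% of all genes. Ratios are given as log2 of the cKO-labelled level divided by the control-labelled one, with 5 CPM added to both. Over all cells they were −4.26 for Elf3, −3.28 for Cited1, −2.85 for Klf5, −2.22 for Pax8, −2.16 for Ehf, −1.17 for Msx1 and −1.07 for Sox17. The share of epithelium-like cells moved in the same direction, from 37.6% to 3.04%. The comparisons below were therefore made within cell classes.

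Within epithelium-like cells the 9 genes did not move as a group. Of the 8 with at least 10 CPM in either library, 2 were lower by at least 2-fold in the cKO-labelled library, Cited1 and Elf3, and 2 were higher, Foxa2 and Sox17. Cited1 passed that minimum only through the control-labelled library and Foxa2 only through the cKO-labelled library. Foxa2 was so low in the control-labelled library (1.32 CPM) that, with 5 CPM added, passing the minimum made it a call. Of all 8678 genes that passed the same minimum, 7.24% were lower and 13.6% higher by that rule, with a median log2 ratio of 0.26. Median of ratios scaling left the 9 genes at 2 lower and 2 higher, while the share of all genes became 11.3% lower and 7.26% higher. Klf5, Ehf, Pax8 and Msx1 lay within 2-fold, and Ihh stayed under 10 CPM in both libraries.

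Over the whole epithelium-like class, Cited1 showed the largest difference of the 9. It had 2779 UMIs in epithelium-like cells of the control-labelled library, or 147 CPM with an interval of 142 to 153, and 5 UMIs in those of the cKO-labelled library, or 3.71 CPM with an interval of 1.21 to 8.66. The log2 ratio was −4.13, and the raw level was 39.6-fold lower with an interval of 17.0 to 122. Of the 2779 UMIs, 2137 lay in the 216 deep cells of sub-cluster 4, which had 1 cell in the cKO-labelled library. At least 1 Cited1 UMI was found in 386 of 1312 cells (29.4%) in the first library and in 3 of 109 cells (2.75%) in the second. The median depths of these cells were 4371.5 and 4075 UMIs, and after every cell was thinned to 1000 UMIs the shares were 7.85% and 0.917%. Among cells with 1000 to 5000 UMIs, 99 of 727 had a Cited1 UMI in the control-labelled library and 0 of 69 in the cKO-labelled library.

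Cited1 was also lower within clusters 0 and 3, the epithelial clusters with more than 1 cell of each library. In cluster 0 it was 103 CPM (355 UMIs) against 0 UMIs, and the exact interval of the ratio began at 3.73-fold lower. In cluster 3 it was 41.5 CPM (235 UMIs) against 4.13 CPM (5 UMIs). The log2 ratio of Cited1 there was −2.35 and that of Foxa2 was 2.40, so the ranking over the class did not hold there. In cluster 0, 1 of the 9 genes was lower (Cited1) and 2 were higher (Sox17, and Ihh with 1 against 2 UMIs), against 13.5% and 17.8% of all genes. In cluster 3, Cited1 and Elf3 were lower and Foxa2 and Sox17 higher, so 2 and 2, against 5.48% and 9.04% of all genes.

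Outside the epithelium Cited1 was scarce in both libraries. It had 28 UMIs (2.92 CPM) in fibroblast-like cells of the control-labelled library and 62 UMIs (3.85 CPM) in those of the cKO-labelled library. Smooth muscle-like cells had 8 UMIs (8.47 CPM) and 20 UMIs (9.56 CPM), and both pairs of intervals overlapped. In the cKO-labelled library the level in epithelium-like cells thus did not exceed that in smooth muscle-like cells. The free RNA in empty droplets of 10 to 100 UMIs held Cited1 at 30.03 CPM in the control-labelled library and at 0.897 CPM (1 UMI) in the cKO-labelled library.

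Elf3, an ETS factor of barrier epithelia, was lower as well but still widely detected. It had 12792 UMIs (677 CPM, interval 665 to 689) in epithelium-like cells of the control-labelled library and 370 UMIs (275 CPM, interval 247 to 304) in those of the cKO-labelled library. The log2 ratio was −1.29, a raw level 2.46-fold lower with an interval of 2.22 to 2.74. At least 1 UMI was found in 79.3% and 61.5% of the cells, and in 42.2% and 24.8% of the cells thinned to 1000 UMIs. When every cell weighed the same, the mean level was 646 CPM against 352 CPM, a log2 ratio of −0.87, so the 2-fold mark was not reached. By that weighting 7.98% of all genes were lower and 14.4% higher, and of the 8 genes at or above 10 CPM only Cited1 (−4.16) and Foxa2 (2.00) passed 2-fold.

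The 2 main epithelial clusters differed in Elf3. In cluster 3 it stood at 811 CPM (4587 UMIs) in the control-labelled library and 258 CPM (312 UMIs) in the cKO-labelled library, a log2 ratio of −1.64. In cluster 0 it stood at 484 CPM (1667 UMIs) and 432 CPM (58 UMIs), and the interval of the raw ratio, 0.674 to 1.16, included 1. Whether the ratios of the clusters differ was not tested.

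Ehf, the closest relative of Elf3 among the 9, did not follow it. Its level was 116 CPM (2187 UMIs) in epithelium-like cells of the control-labelled library and 108 CPM (146 UMIs) in those of the cKO-labelled library, a log2 ratio of −0.09, and the interval of the raw ratio ran from 0.787 to 1.11. At least 1 UMI was found in 33.4% and 31.2% of cells. In cluster 3 alone the levels were 163 CPM and 117 CPM, a log2 ratio of −0.46.

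Klf5, a Krüppel-like factor that sustains proliferation and differentiation of epithelia, differed little. Its level was 616 CPM (11650 UMIs) in the control-labelled library and 466 CPM (628 UMIs) in the cKO-labelled library, a log2 ratio of −0.40, and 65.3% and 63.3% of the epithelium-like cells held at least 1 UMI. With every cell weighted equally the ratio was −0.22, and in cluster 3 alone it was 0.26. The direction of Klf5 therefore depended on which epithelial cells were compared.

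Sox17, a Sox factor of the uterine epithelium and of endothelium, was higher by sum but not evenly over cells. It had 1448 UMIs (76.6 CPM, interval 72.7 to 80.7) in the control-labelled library and 413 UMIs (307 CPM, interval 278 to 338) in the cKO-labelled library, a log2 ratio of 1.93. A single cell of 260185 UMIs held 188 of the 413, and the 5 deepest cells held 318 of them (77.0%). Without the 5 deepest cells of each library the levels were 74.3 CPM and 138 CPM, a log2 ratio of 0.85; in that setting 6.73% of all genes were lower and 16% higher. With every cell weighted equally they were 91.7 CPM and 175 CPM (0.90), and after thinning the ratio was 0.45 from 113 and 13 UMIs, where 15.4% of all genes were lower and 20% higher. The share of cells with at least 1 UMI was 35.1% in the control-labelled library and 36.7% in the cKO-labelled library.

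**Figure D2:**
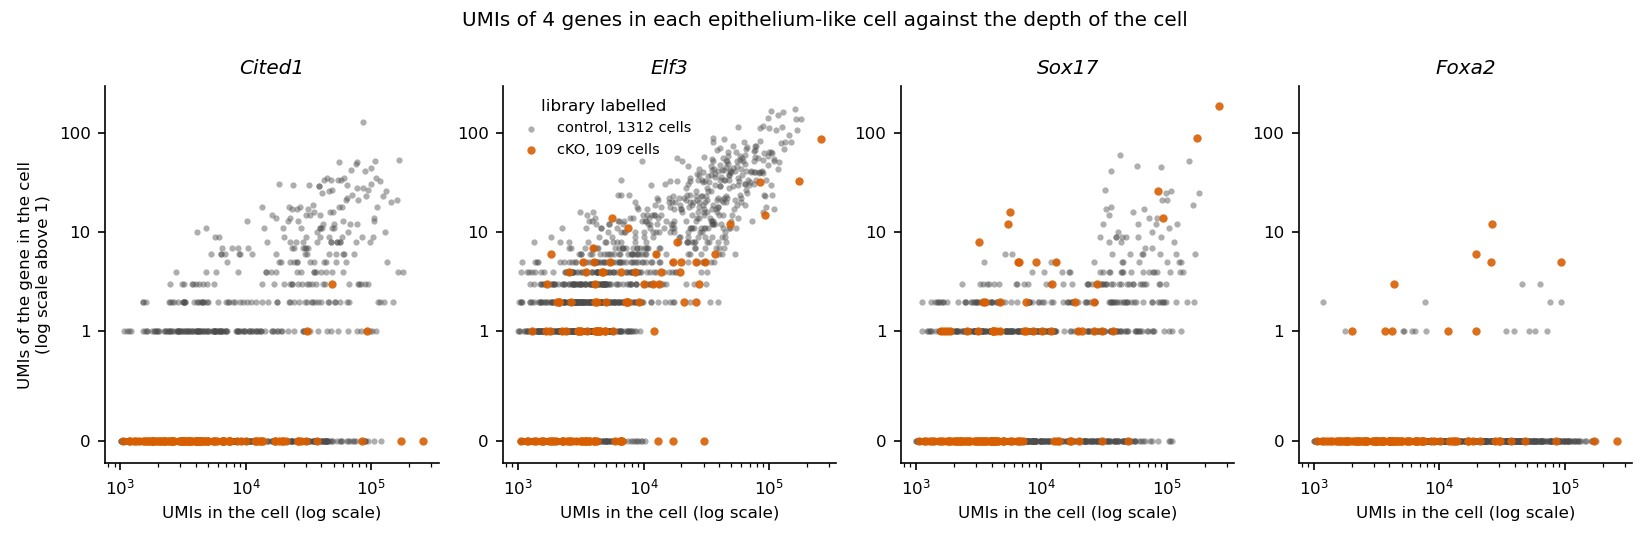
UMIs of Cited1, Elf3, Sox17 and Foxa2 in each of the 1312 epithelium-like cells of the control-labelled library (grey) and the 109 of the cKO-labelled library (orange), against the UMIs of the cell, with a log x axis and a y axis that is logarithmic above 1. Only 3 orange cells hold a Cited1 UMI, and the deepest orange cell carries 188 Sox17 UMIs.

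Pax8, the Müllerian lineage factor, stood at 105 CPM (1977 UMIs) in the control-labelled library and 151 CPM (204 UMIs) in the cKO-labelled library, a log2 ratio of 0.51. It was detected in 40.5% and 37.6% of epithelium-like cells. After thinning its ratio was −0.16 from 149 and 11 UMIs, with the other sign.

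Msx1, a homeobox factor known for its loss from the luminal epithelium at implantation, stood at 89.95 CPM (1700 UMIs) and 143 CPM (193 UMIs), a log2 ratio of 0.64. It was detected in 40.1% and 41.3% of epithelium-like cells. In cluster 3 alone the levels were 146 CPM and 143 CPM, a log2 ratio of −0.03, with an interval of the raw ratio from 0.824 to 1.15.

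Foxa2, the gland factor, was scarce in both libraries. It had 25 UMIs in 17 of the 1312 epithelium-like cells of the control-labelled library (1.32 CPM, interval 0.856 to 1.95) and 36 UMIs in 10 of the 109 of the cKO-labelled library (26.7 CPM, interval 18.7 to 37.0). The log2 ratio was 2.33 and the raw ratio 20.2, with an interval of 11.8 to 35.1. No cell of the first library held more than 3 Foxa2 UMIs, whereas 3 cells of the second held 23 of its 36. After thinning, the counts were 5 and 2 UMIs.

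Ihh, the hedgehog ligand, was close to the limit of detection. It had 3 UMIs in 3 epithelium-like cells of the control-labelled library (0.159 CPM) and 8 UMIs in 5 of those of the cKO-labelled library (5.94 CPM, interval 2.56 to 11.7). The raw ratio was 37.4 with an interval of 8.98 to 219. Foxa2 and Ihh occurred together in 1 cell of the control-labelled library and in 2 of the cKO-labelled library. Thinning to 1000 UMIs left no Ihh UMI in either library, and a difference was not detectable at that depth.

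**Figure D3:**
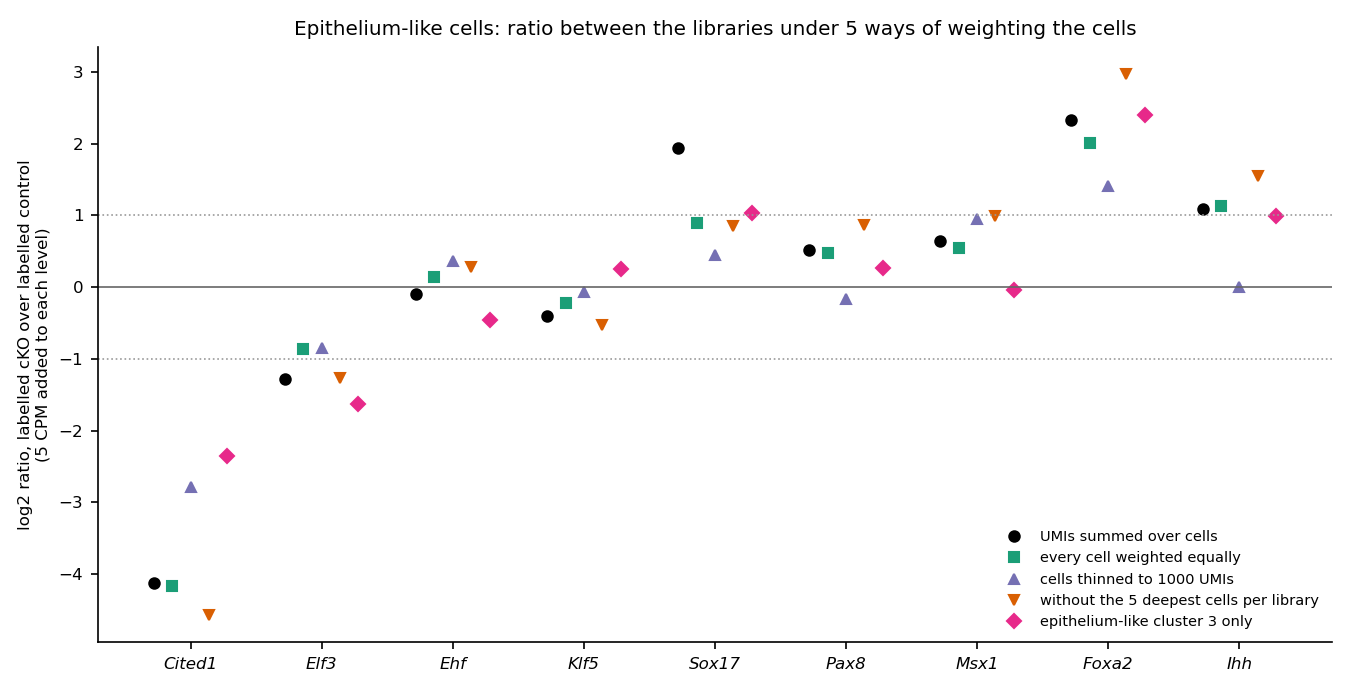
Log2 ratio of each gene in epithelium-like cells, cKO-labelled library over control-labelled library with 5 CPM added, under 5 ways of weighting the cells, with dotted lines at 2-fold. Cited1 lies between −2.35 and −4.58 and Foxa2 between 1.41 and 2.97 under these 5, while Sox17 drops from 1.93 to 0.45 once cells are thinned.

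Markers and stress genes moved beside these values. The summed share of 6 luminal markers was 0.682% of epithelial UMIs in the control-labelled library and 0.321% in the cKO-labelled library, that of 6 glandular markers 0.000265% and 0.00831%, and that of 6 squamous markers 0.0103% and 0.0523%. At least 1 glandular marker was found in 2.82% and 23.9% of the epithelium-like cells, and 2 of the 6 were at 0 in the control-labelled library. Of the 9 interferon-stimulated genes measured, all 9 were lower in the cKO-labelled library, against 7.24% of all genes, with a median log2 ratio of −3.33. Examples were Isg15 at 683 CPM against 46.0 CPM and Rsad2 at 419 CPM against 26.0 CPM. Of 10 genes that respond to tissue dissociation, 1 was lower (Atf3, −1.47) and the median was −0.44. In cluster 3 alone 3 of the 10 were lower, against 5.48% of all genes, with a median of −0.79. Interferon-stimulated genes were lower in fibroblast-like cells too, with 8 of the 8 that reached 10 CPM, against 0.884% of all genes. The 7 smooth muscle markers held 0.00703% of epithelial UMIs in the control-labelled library and 0.0264% in the cKO-labelled library. The part of cell makeup, interferon response and dissociation in the ratios of the 9 genes was not tested.

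Sub-clusters of the epithelium, made after the data had been seen and without the 9 genes, showed how the genes vary among epithelial cells. There were 8 of them, numbered 0 to 7. Within the control-labelled library, Cited1 ranged from 8.80 CPM (7 UMIs) in sub-cluster 5, led by Sbsn and Clca3b, to 208 CPM (2137 UMIs) in sub-cluster 4, led by Ero1l and H2-Ab1. Klf5 was also highest in sub-cluster 4, at 804 CPM, and lowest in sub-cluster 1, at 152 CPM. In that library sub-clusters 4 and 6 were the deep ones, with medians of 37904.5 and 43695.5 UMIs. Sub-cluster 4 held 8254 of the 11650 Klf5 UMIs of its epithelium-like cells, so the class level of Klf5, like that of Cited1, rests largely on it.

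Msx1 and Sox17 had other peaks in that library. Msx1 was highest in sub-cluster 1, at 322 CPM (435 UMIs), where Ifnb1 and Ifit2 led, and lowest in sub-cluster 6, at 35.7 CPM (60 UMIs). By sums, Sox17 was highest in sub-cluster 6, led by Sprr2d and Sprr2e, at 275 CPM (461 UMIs), and lowest in sub-cluster 4, at 38.7 CPM (397 UMIs). These peaks rest on few cells, since 5 cells held 48.0% of the Msx1 UMIs of sub-cluster 1 and 5 held 53.8% of the Sox17 UMIs of sub-cluster 6. With cells thinned to 1000 UMIs both genes were highest in sub-cluster 5, Msx1 at 219.5 CPM and Sox17 at 190.2 CPM, with intervals that overlapped those of sub-clusters 1 and 6 in turn. Of the 7 genes other than Foxa2 and Ihh, Elf3 had the smallest fold between its highest and lowest level, from 432 CPM in sub-cluster 0 to 866 CPM in sub-cluster 1.

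**Figure D4:**
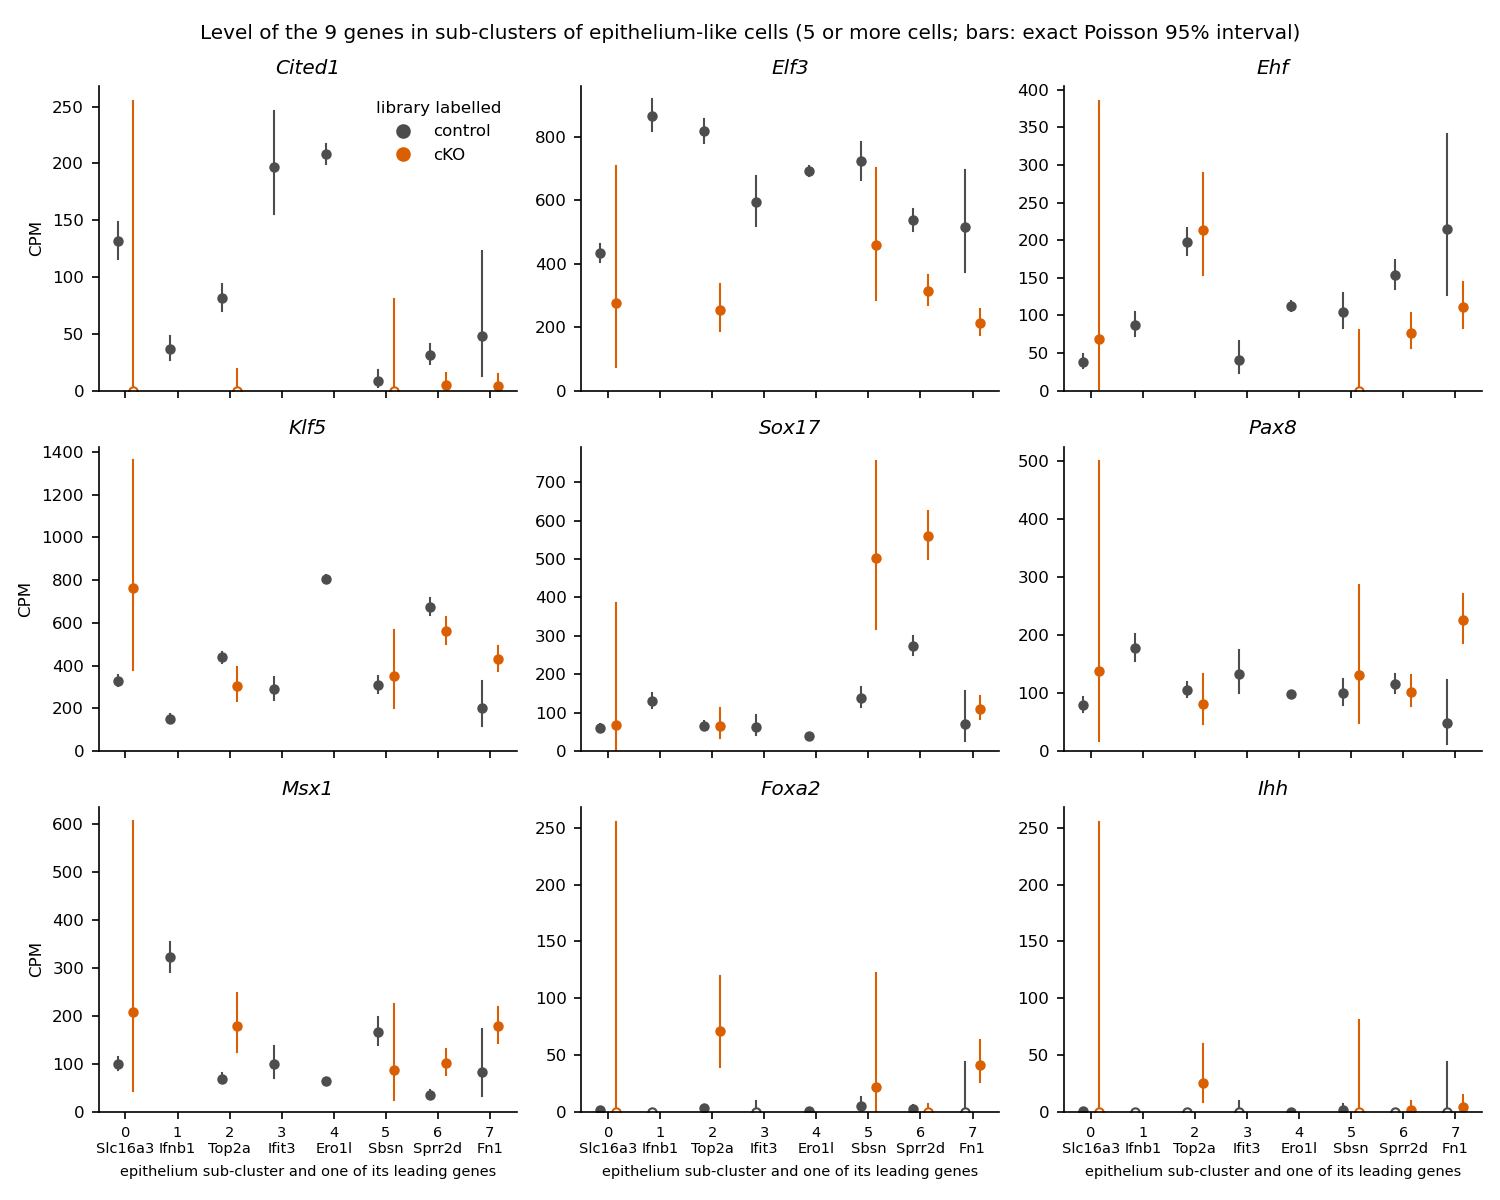
Level in CPM of each gene in the 8 sub-clusters of epithelium-like cells, for the control-labelled library (grey) and the cKO-labelled library (orange), where at least 5 cells were present. Bars are exact Poisson 95% intervals and open points are 0 UMIs. Cited1 of the control-labelled library runs from 8.80 CPM in sub-cluster 5 to 208 CPM in sub-cluster 4, and the orange Cited1 points all lie at or near 0.

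Only sub-clusters 2 and 7 held at least 20 cells of each library. Sub-cluster 2, led by the proliferation genes Top2a and Mki67 and by Spink12, had 115 and 29 cells. Sub-cluster 7 was led by Fn1, Gpx2 and Clu, had the smooth muscle genes Cald1 and Acta2 among its 10 leading genes, and held the gland product Cxcl15 in 13.3% of its cells. It had 20 and 55 cells, or 1.52% and 50.5% of the epithelium-like cells.

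In sub-cluster 2, Cited1 and Elf3 were again lower and Foxa2 again higher. Cited1 had 190 UMIs (81.3 CPM) against 0, and the exact interval began at 4.28-fold lower in the cKO-labelled library. Elf3 stood at 817 CPM against 255 CPM, 3.21-fold lower with an interval of 2.42 to 4.34. Foxa2 stood at 2.99 CPM (7 UMIs) against 71.3 CPM (14 UMIs), and Msx1 at 69.3 CPM (162 UMIs) against 178 CPM (35 UMIs). A single cell held 19 of those 35 Msx1 UMIs, and after thinning Msx1 stood at 121.7 CPM against 103.4 CPM, in the other direction. Ihh had 0 UMIs in the control-labelled library and 5 (25.5 CPM) in the cKO-labelled library, and the exact interval of the ratio began at 10.9-fold higher. Sox17 was level there, at 66.3 CPM and 66.2 CPM. In this sub-cluster 2 of the 9 genes were lower and 3 higher, against 11.9% and 23.5% of all genes.

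In sub-cluster 7 the counts of the control-labelled library were small. Cited1 had 4 UMIs against 2, a raw level 12.1-fold lower in the cKO-labelled library with an interval of 1.74 to 134. Elf3 stood at 515 CPM (43 UMIs) against 214 CPM (108 UMIs). Pax8 stood at 47.9 CPM (4 UMIs) against 225 CPM (114 UMIs), and Klf5 at 204 CPM (17 UMIs) against 431 CPM (218 UMIs). Msx1 stood at 83.8 CPM (7 UMIs) against 178 CPM (90 UMIs). Foxa2 had 0 UMIs against 21, of which 12 lay in a single cell. In this sub-cluster 2 genes were lower and 4 higher, against 20.4% and 21.3% of all genes. The intervals of the raw ratios of Foxa2 and Msx1 reached down to 0.860 and 0.989, so they included no difference.

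Sub-clusters 2 and 7 also held most Foxa2 of the cKO-labelled library, 35 of its 36 UMIs and 9 of its 10 positive cells, and 29 and 55 of its 109 epithelium-like cells. In the control-labelled library they held 7 of 25 Foxa2 UMIs and 5 of 17 positive cells, and 115 and 20 of the 1312 epithelium-like cells. Sub-cluster 6 held 320 of the 413 Sox17 UMIs of the cKO-labelled library in 5 cells, with a median of 84439 UMIs. Without sub-cluster 6, the log2 ratio of Sox17 in epithelium-like cells was 1.00 and that of Cited1 −4.43, and 2 of the 9 genes were lower and 2 higher, against 7.25% and 15.5% of all genes. With sub-clusters 2 and 7 alone, weighted equally, Sox17 had a ratio of 0.34, while Foxa2, Ihh and Msx1 were the 3 genes higher, where 9.54% of all genes were lower and 17.1% higher.

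Several of the genes were also found outside the epithelium. Klf5 came second in mesothelium-like cells, at 188 CPM (176 UMIs in 83 cells) in the control-labelled library and 177 CPM (99 UMIs in 31 cells) in the cKO-labelled library. It was lower in smooth muscle-like cells, at 51.9 and 43.5 CPM, and in fibroblast-like cells, at 17.1 and 16.6 CPM. The intervals of the libraries overlapped in all 3 classes. The order epithelium, mesothelium, smooth muscle was the same in both libraries, with intervals that did not overlap between neighbours.

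Msx1 stood at 40.3 CPM (38 UMIs) in smooth muscle-like cells of the control-labelled library and 46.3 CPM (97 UMIs) in those of the cKO-labelled library, at 25.6 and 32.1 CPM in mesothelium-like cells, and at 11.6 and 14.6 CPM in fibroblast-like cells. The intervals of smooth muscle and mesothelium overlapped in both libraries, so these neighbours were not separated. In the cKO-labelled library, fibroblast-like cells held 40.5% of all Msx1 UMIs in cells and epithelium-like cells 33.3%. In fibroblast-like cells 7 of the 9 genes were under 10 CPM in both libraries and could not be called. The other 2 lay within 2-fold, where 0.884% of all genes were lower and 1.71% higher. The same counts, 7 and 2, held in smooth muscle-like cells (2.02% of all genes lower, 3.88% higher) and mesothelium-like cells (3.17% and 5.39%). In macrophage or monocyte-like cells 8 were under 10 CPM and 1 lay within 2-fold (2.51% and 1.23%). All 9 were under 10 CPM in T or NK-like cells (1.69% and 2.62%), so no call was possible there.

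Sox17 was the endothelial member. Blood endothelium-like cells were few, and had 8 UMIs in 9 cells (143 CPM, interval 61.8 to 282) in the control-labelled library and 45 UMIs in 28 cells (125 CPM, interval 91.3 to 167) in the cKO-labelled library. Of those 45 UMIs, 84.4% lay in 5 cells. Lymphatic endothelium-like cells had 1 and 0 Sox17 UMIs in 22 and 75 cells.

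Ehf was present in dendritic cell-like cells, at 29.8 CPM (52 UMIs in 17 of 160 cells) in the control-labelled library and 56.2 CPM (110 UMIs in 36 of 212 cells) in the cKO-labelled library. The log2 ratio was 0.82. Macrophage or monocyte-like cells held Ehf too, at 5.58 CPM (15 UMIs) and 13.3 CPM (22 UMIs). In T or NK-like cells, which should lack it, Ehf had 0 UMIs in 195 and in 450 cells, which at 3 counts allows up to 1.54% and 0.667% of cells with a UMI and sets no limit on cells that express it. Subtracting free RNA left 29.1 and 55.8 CPM in dendritic cell-like cells. Klf5 and Elf3 were lower there, at 50.4 against 8.17 CPM and 24.0 against 5.11 CPM, which makes 2 of the 9 genes lower and 0 higher, where 3.95% of all genes were lower and 3.61% higher. A single cell held 42 of the 88 Klf5 UMIs of the control-labelled library, and free RNA held Elf3 at 254 and 22.4 CPM.

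Relatives of the 9 genes mostly lay within 2-fold. Of 28 members of the same families, 21 had at least 10 CPM in epithelium-like cells, of which 1 was lower, 1 higher and 19 within 2-fold, against 7.24% lower and 13.6% higher over all genes, with a median log2 ratio of 0.01. With cells thinned, 5 of 21 were lower and 0 higher, against 15.4% and 20% of all genes, and the median was −0.15. The lower one was Foxa1, at 13.0 CPM (245 UMIs) against 0.742 CPM (1 UMI), a log2 ratio of −1.65. Foxa1 thus stood opposite to its paralogue Foxa2. The higher one was Klf2, at 28.7 against 64.6 CPM. In cluster 3 alone Klf2 lay within 2-fold (0.63) and Foxa1 was under 10 CPM. Cited2, the paralogue of Cited1, stood at 240 and 154 CPM, a log2 ratio of −0.62, and Elf1 at 354 and 183 CPM.

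Among 24 other transcription factors of epithelia, 14 passed the minimum. Against 7.24% lower and 13.6% higher over all genes, 0 of the 14 were lower and 3 higher. Among these were Id1, an inhibitor of helix-loop-helix factors, at 87.8 against 352 CPM, and the grainyhead-like factor Tfcp2l1 at 72.8 against 185 CPM. The median of this list was 0.31, near the 0.26 of all genes. None of 8 mesenchymal transcription factors reached 10 CPM in epithelium-like cells of either library.

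The genes that act with Ihh were read in the epithelium and in the fibroblast-like cells that receive its signal. In epithelium-like cells only Ptch1 and Cdon, of 16 hedgehog pathway genes, reached 10 CPM, and both lay just under 2-fold higher, at 0.98 and 0.99, Ptch1 from 8.10 CPM (153 UMIs) and 20.8 CPM (28 UMIs). In fibroblast-like cells 6 of the 16 did, with a median of 0.00. Of all genes 1.71% were higher there, and of the 6 genes, 1 was higher and 5 within 2-fold. That gene was Ptch1, the receptor and a target of the pathway, at 10.5 CPM (101 UMIs) against 27.2 CPM (439 UMIs), a log2 ratio of 1.05. The fibroblast-like class differed in makeup: cluster 22 gave 16 of its 851 cells in the control-labelled library and 221 of 1343 in the cKO-labelled library, and cluster 13 gave 223 and 56. Within cluster 22 Ptch1 stood at 48.4 CPM (13 UMIs) and 43.7 CPM (198 UMIs), and within cluster 9, the largest, at 12.1 CPM (39 UMIs) and 19.9 CPM (63 UMIs). Within cluster 16 it stood at 42.2 CPM (6 UMIs) and 139 CPM (88 UMIs). The part of makeup in the Ptch1 ratio of the class was not tested. Gas1, a co-receptor, stood at 109 against 59.2 CPM, a log2 ratio of −0.83.

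Of 11 genes of the progesterone and Ihh axis, 8 reached 10 CPM in epithelium-like cells, with a median of 0.48. Against 7.24% lower and 13.6% higher over all genes, 1 of the 8 was lower and 1 higher. The progesterone receptor Pgr was the higher one, at 26.4 CPM (498 UMIs) against 86.1 CPM (116 UMIs), a log2 ratio of 1.54. The ligand Wnt4 was the lower one, at 57.0 CPM (1077 UMIs) against 23.0 CPM (31 UMIs). In cluster 3 alone the ratio of Pgr was 1.02 and that of Wnt4 −0.99. In fibroblast-like cells 9 reached the minimum, with 0 lower and 1 higher, against 0.884% and 1.71% of all genes. The higher one was Hand2, a stromal factor that acts under progesterone. It stood at 3.55 CPM (34 UMIs) against 31.1 CPM (502 UMIs), a log2 ratio of 2.08. Of those UMIs, 18 of 34 and 396 of 502 lay in cluster 22, where Hand2 stood at 67.1 CPM and 87.3 CPM. Within that cluster the difference was far smaller than over the class. In cluster 16 Hand2 stood at 28.2 CPM (4 UMIs) and 125 CPM (79 UMIs), and in cluster 8 at 2.01 and 1.81 CPM. The part of cell makeup in the Hand2 difference was not tested. Of 8 gland products 3 reached 10 CPM in epithelium-like cells. The 8 include every glandular marker summed above, so these values and those shares rest on the same genes in part. Of these 0 were lower, 2 higher and 1 within 2-fold, against 7.24% lower and 13.6% higher over all genes. The higher ones were Cxcl15 with 2 against 55 UMIs, and Aldh1a1 with 39 against 45 UMIs (2.06 against 33.4 CPM). Both passed the minimum only through the cKO-labelled library. In cluster 3 alone 1 of the 3 was lower and 2 were higher, against 5.48% and 9.04% of all genes. Summed over the epithelium-like class, the 8 stood at 102 and 132 CPM.

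**Figure D5:**
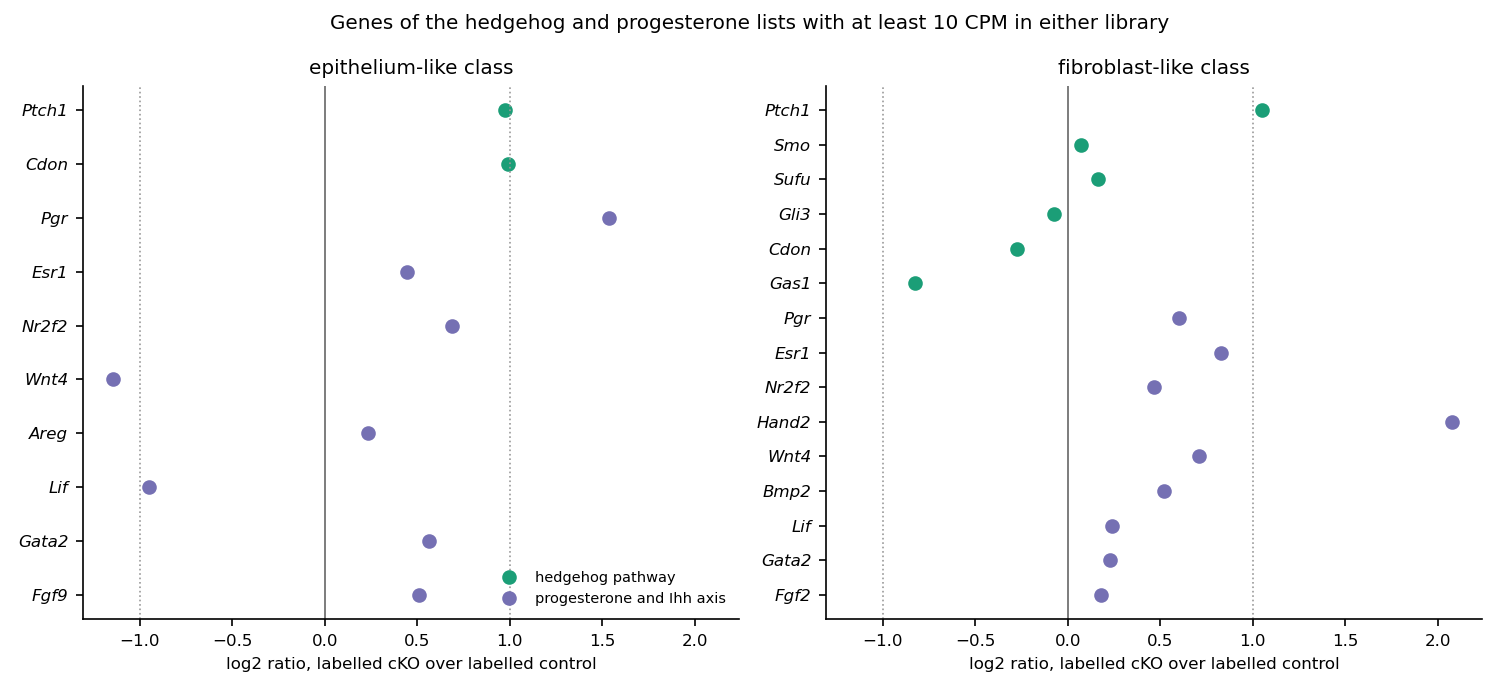
Log2 ratio, cKO-labelled library over control-labelled library with 5 CPM added, of the hedgehog pathway genes (green) and the genes of the progesterone and Ihh axis (violet) that reached 10 CPM, in epithelium-like and fibroblast-like cells, with dotted lines at 2-fold. Pgr (1.54) and Hand2 (2.08) lie farthest to the right in their panels and Wnt4 (−1.15) farthest to the left in the epithelium.

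Pattern over clusters set the 9 genes apart from one another. Pearson correlations were taken over 43 sums of a cluster in a library, 6 of them epithelial and each with its own depth, among 12722 genes, as a description only. Elf3 and Pax8 ran closest, at 0.97, followed by Elf3 and Ehf at 0.90 and Sox17 and Pax8 at 0.89. Cited1 had no correlation above 0.58 with any of the others, that being with Klf5, and stood at 0.36 with Sox17 and 0.09 with Foxa2.

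By the same measure, the gene most like each of the 9 was as follows. Elf3 was matched by Trpv6, a calcium channel, at 0.99, and by Tmem45b and Atp10b at 0.98. Pax8 was matched by Gabrp at 0.98 and Ehf by Macc1 at 0.96. Sox17 was matched by Mecom, a zinc-finger factor, at 0.94, and Klf5 by Shroom3 and the plakin Ppl at 0.90. Cited1 was matched by BC016579 and Alox12 at 0.86 and by the steroid-inactivating enzyme Hsd17b2 at 0.83, Msx1 by Trpm4 at 0.87, and Foxa2 by the tight-junction gene Cldn2 at 0.95. Ihh was matched by Krt36 at 0.96, from 15 UMIs of Ihh in all cells. The Foxa2 match rests on few UMIs too. Its highest sum, 29.7 CPM in cluster 3 of the cKO-labelled library, held 36 of the 42 Foxa2 UMIs in cells of that library.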

How the data were processed

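Whole uterus was read by droplet single-cell RNA sequencing from the 3-prime end. The authors deposited unnormalized UMI counts per gene and barcode, with empty droplets kept. They were made with Cell Ranger 4 per the file headers, while the submitters' processing notes name Cell Ranger 6.1.1 and mm10. The total was 45035801 UMIs for the control-labelled library and 34261441 for the cKO-labelled library, of which 83.4% and 85.7% fell in cells.

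Cells were clustered with scanpy 1.11.5 (2000 variable genes, 30 components, 15 neighbours, Leiden resolution 1, or 0.5 for sub-clusters) and named X-like from markers. The members were left out of the variable genes, as were list genes that are not markers. List genes that are also markers, such as Cxcl15 and Aldh1a1, could enter. Of 24 clusters 3 stayed unnamed. Scrublet marked 3 and 1 cells and so did not work, and doublets remain. UMIs were summed per library and class and scaled to CPM. Levels carry exact Poisson, shares exact Clopper-Pearson and ratios exact conditional intervals (95%, scipy 1.17.1); PCR copies were removed by UMI, and the intervals cover counting error only. Ratios add 5 CPM, which understates low genes, and need 10 CPM in either library. A gene near 0 in 1 library that reaches 10 CPM in the other is therefore always called. A share of 0 cells is given with the limit that 3 counts set. Intervals and ratios were checked on simulated Poisson counts, which is the model that the intervals assume. That check covers the calculation only, and not UMIs that gather in a few cells.

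The members and lists were chosen with earlier results of these data known. Named genes were the 9, Prickle1, genes of each list beyond 2-fold (at most 5), and the 3 genes most like each member, with some relatives, Ptch1, Cdon and Gas1 in epithelium or fibroblasts, and Atf3, named after their values were seen. Mx1 of the interferon list was not used here. The values of 1 gene of the list of other epithelial transcription factors are not reported here.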

Additional observations from a re-analysis of the deposited data

Results flagged for a closer look

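Klf5 moved in opposite directions in the 2 epithelial sub-clusters that held at least 20 cells of each library. In sub-cluster 7 its log2 ratio was 1.06, from 17 UMIs (204 CPM) in the control-labelled library and 218 UMIs (431 CPM) in the cKO-labelled library. In sub-cluster 2 it was −0.51, from 1025 UMIs (438 CPM) and 60 UMIs (306 CPM). The counting intervals lay on opposite sides of no difference, and the gap between the ratios was 1.58. In the cKO-labelled library 5 cells held 65.6% of the Klf5 UMIs of sub-cluster 7 and 5 held 66.7% of those of sub-cluster 2. After thinning, the levels were 300.0 against 363.6 CPM in sub-cluster 7 and 330.4 against 275.9 CPM in sub-cluster 2, and both pairs of intervals overlapped widely. That gap was not tested, since each library is 1 sample, and the sub-clusters were made after the data had been seen.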

How the results depend on the processing

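In 16 alternatives, 4 of them (equal weights for cells, equal weights for sub-clusters 2 and 7 alone, no 5 deepest cells, no sub-cluster 6) added after seeing the data, Cited1 was lower and Foxa2 higher by at least 2-fold in all 16. Some of the 16 could hardly move a ratio. Dropping the minimum level leaves ratios unchanged, and Leiden resolution 0.5 again gave 1312 and 109 cells. Removing the highest Scrublet scores left all 109 cells of the cKO-labelled library. The thinned Foxa2 ratio rests on 5 and 2 UMIs, with a raw interval of 0.458 to 29.4 that included 1. Foxa2 reached 10 CPM only in the cKO-labelled library, and in the main setting its call followed from that. Elf3 was lower in all 16, by at least 2-fold in 14, and Sox17 higher in all 16, by at least 2-fold in 12 (range 0.34 to 2.10). With cells thinned to 1000 UMIs, and with every cell weighted equally, 1 gene was lower (Cited1) and 1 higher (Foxa2); 15.4% and 20% of all genes were lower and higher after thinning, and 7.98% and 14.4% with equal weights. Klf5, Ehf, Pax8 and Msx1 changed sign in at least 1 alternative each; the cause was not tested. Without the 5 deepest cells of each library, the 2 higher genes were Foxa2 and Ihh (10.2 CPM), not Sox17. Ihh stood at 0.166 CPM in the control-labelled library there, so its call followed from passing the minimum. With sub-clusters 2 and 7 weighted equally the higher genes were 3: Foxa2, Ihh and Msx1. Median of ratios scaling moved the median of all genes from 0.26 to −0.04 and the split from 7.24% lower and 13.6% higher to 11.3% and 7.26%, and left 2 genes lower and 2 higher. Free RNA was estimated at 2.68% and 10.98% of UMIs. No paired analysis was possible because each group is 1 library, and for the same reason no replicate could be left out. Depth limits Foxa2, Ihh and all values from the 109 cells.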

Other observations

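Barcodes that the mitochondrial limit removed were 283 in the control-labelled library and 43 in the cKO-labelled library. In those of the control-labelled library, Msx1 stood at 202 CPM (369 UMIs) and Elf3 at 589 CPM (1078 UMIs), and Cited1 at 18.0 CPM (33 UMIs). The removed barcodes were not sorted by cell class. In the same order, the levels were 50.7, 344 and 75.4 CPM over all cells kept of that library. In its epithelium-like cells alone they were 89.95, 677 and 147 CPM. In those of the cKO-labelled library, Elf3 had 13 UMIs, Sox17 13 UMIs and Cited1 0 UMIs.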
